A study of Mus musculus with 18 samples.

Results

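The comparison is between RNA of the Light polysome fraction and Total cytoplasmic RNA in control murine osteosarcoma cells. Its members are the 3 Light and the 3 Total control libraries, 6 of the 18 libraries of the study, chosen by their labels, and all genes of the table enter it. Of 19862 genes, 17515 were above 0 in at least 3 libraries and were tested. The cells derive from tumors of mice with conditional p53 and Rb deletions, carry floxed alleles of the arginine methyltransferase gene Prmt1 and stably express CreER, a Cre recombinase that tamoxifen switches on. Control cells received the ethanol vehicle and are labelled wild type, although they hold the same floxed alleles and CreER as the knockout cells, which received 4OHT. The labels give a mixed strain background and post natal day 299 for all groups, and describe 1 tumor-derived cell system. Cells were treated with cycloheximide, which holds ribosomes on their messages, and the cleared lysate was either kept as Total or separated on a sucrose gradient and collected as a Light pool, with messages of less than 3 ribosomes, and a Heavy pool, with those of more than 3. Which gradient fractions entered the Light pool, and whether free particles and single ribosomes were among them, the sources used here do not say.

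A message being translated carries several ribosomes at once, and the number grows with how often ribosomes start on it and with how long each takes to reach the stop codon. A short coding sequence has room for few ribosomes, so even an active short message can sediment with the Light fraction. Messages held back before initiation carry few or none, and noncoding RNAs of the cytoplasm and messages cleared by repressor proteins sediment lighter still. All values are shares, in counts per 1000000 reads of a library (CPM), so a difference of Light from Total is a difference in share, which is neither a number of molecules nor a rate of translation. In these bulk libraries fewer cells of a type and less RNA per cell cannot be told apart.

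The 6 libraries held 32.8 to 57.9 M reads (M for 1000000), and replicate libraries correlated at 0.986 to 0.996 over genes. Osteoblast-lineage markers were present, with none of 18 at 0, 13 of at least 1 CPM in Total, and sums of 2497 to 2952 CPM in Light and 4474 to 6274 CPM in Total, a difference whose part in the results was not tested. The collagen genes Col1a1 and Col1a2, whose values are given below, held a large part of these sums. The marker sums of other cell types were low, at 6.70 to 9.34 CPM for macrophages, 3.96 to 8.64 CPM for epithelium, 20.8 to 38.3 CPM for chondrocytes, 35.2 to 51.2 CPM for adipocytes and muscle, 41.5 to 87.5 CPM for osteoclasts and 78.4 to 124 CPM for endothelium, almost all of it Eng. Of these markers Tyrobp, Tek, Col9a2, Myod1, Myog, Dcstamp and Atp6v0d2 were at 0. Prmt1 stood at 255, 243 and 218 CPM in Light and 256, 277 and 285 CPM in Total control libraries, and at 147, 176 and 173 CPM in Total RNA of the knockout libraries, where reads outside a deleted part of the gene can remain. Whether the 3 libraries of a group stem from separate cultures is not stated, and the p-values reflect the spread between these libraries alone, which may be technical.

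Ferritin messages, which encode the iron store of the cell, had a far smaller share of both polysome pools than of Total, and the regulatory element they carry is shown for that reason. In the 5′ untranslated region of ferritin messages a stem-loop, the iron-responsive element, binds the iron regulatory proteins when iron is scarce and keeps the ribosome from starting. In the 3′ untranslated region of the transferrin receptor message the same element protects the RNA from decay. The lines below give 30 bases of the GENCODE M21 transcripts (build GRCm38) around matches to CNNNNNCAGTGN, with the CAGTGN of the loop in capitals, searched on the transcript strand alone. Fth1 at chr19:9982729-9982758, plus strand, and Ftl1 at chr7:45459781-45459810, minus strand, are 5′ sites, while the Tfrc sites A, B and C, on the plus strand at chr16:32631216-32631245, chr16:32631595-32631624 and chr16:32631707-32631736, are 3′ sites.
Fth1: ggtttcctgcttcaaCAGTGCttgaacgga
Ftl1: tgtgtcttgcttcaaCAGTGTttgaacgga
Tfrc site A: gataattatcggaagCAGTGCcttccataa
Tfrc site B: tcacattatcgggagCAGTGTcttccataa
Tfrc site C: cgtaattatcgggaaCAGTGTttcccataa
The same letters occurred in the last 200 bases before the start codon of 555 of 7460 genes with a 5′ untranslated region of that length, or 7.44%, so a match by itself marks no functional site. In Tfrc, 5 matches lay in the 3′ untranslated region, of which the 3 with the most alike flanks are shown. The letters A, B and C only label the sites printed here, in order of position.

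Across all genes, 7799 of 17515 (44.5%) differed between Light and Total, with 2897 (16.5%) higher in Light and 4902 (28.0%) lower (limma with trend and robust variances, Benjamini-Hochberg adjusted p under 0.05). Of these, 147 were higher and 1818 lower by at least 1 on the log2 scale. Log2 differences are of log2(CPM + 1), which understates the change of genes of low level, and each SE pools the spread of all 6 groups of the study. Among 9588 genes of at least 5 CPM on average, the libraries of Light and Total did not overlap for 79.5%, with every Light library higher for 33.5% and every Light library lower for 46.0%. The counts of lists below are to be read beside all these shares, as the members of most lists are largely of at least 5 CPM. The split depends on the scaling: 37.1% of calls were higher as deposited, but quantile normalization gave 54.1% of 7955 and median-of-ratios scaling 55.1% of 8108, and each moved the median of genes of at least 1 CPM up by 0.25. Of 154 genes named in the text, 51 overlap another RefSeq gene other than one for a miRNA or snoRNA, and their reads could not be separated here. They are Actb, Atf5, Atp5a1, Bcl2l1, Bnip3, Cacna1a, Calm3, Ccnd1, Cdk4, Csf1, Ddit3, Dhps, Dhx9, Diap3, Dkc1, Eif3c, Eng, Epb4.1l3, Ewsr1, Fgfr1, Filip1l, Gas5, Gins2, Gnl2, Hif1a, Hspe1, Igf1r, Insig1, Itgav, Jak1, Kif4, Lars, Ldha, Malat1, Mrpl19, Mrps27, Ndufa13, Ndufs1, Pole, Ppp1r15a, Psmd1, Rps2, Rpsa, Sfpq, Sidt2, Slc11a2, Slc35a4, Snhg6, Spcs1, Srsf9 and Ttc16.

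Protein length ordered the messages. Short messages made up more of the Light RNA than of Total, and long messages less. Messages for proteins of up to 200 residues took 37.0%, 37.9% and 37.7% of the reads in the Light libraries and 24.6%, 24.4% and 24.0% in the Total libraries. Those for more than 500 residues took 19.6% ± 0.275 of Light and 30.1% ± 0.303 of Total (SD, n = 3). In both cases the 2 groups did not overlap, and the exact two-sided permutation test gave p = 0.1, the smallest it allows for 3 against 3.

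Among genes of at least 5 CPM, the median log2 difference was 0.68 for up to 100 residues, 0.69 for 101 to 200 and 0.30 for 201 to 300. It was -0.14 for 301 to 500 residues, -0.58 for 501 to 1000, -0.87 for 1001 to 2000 and -1.23 for more than 2000. Calls followed the same order: in the class of 101 to 200 residues 976 of 1813 genes tested were higher and 37 lower, and in the class above 2000 residues 2 of 391 were higher and 238 lower. The Heavy fraction showed another order against the same Total libraries, with medians of -1.72 in the shortest class, 0.15 at 301 to 500 residues and -1.12 above 2000. The longest messages had a lower share than Total in both pools. For 301 to 500 residues only the medians were near 0, as 627 of 4485 genes tested were higher in Light and 1155 lower. Their summed share of reads was 22.1% in Light, 27.2% in Total (means of 3 libraries) and 34.3% to 34.9% in the Heavy libraries. The direction of their Light median turned to 0.11 and 0.12 under quantile and median-of-ratios scaling.

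**Figure D1:**
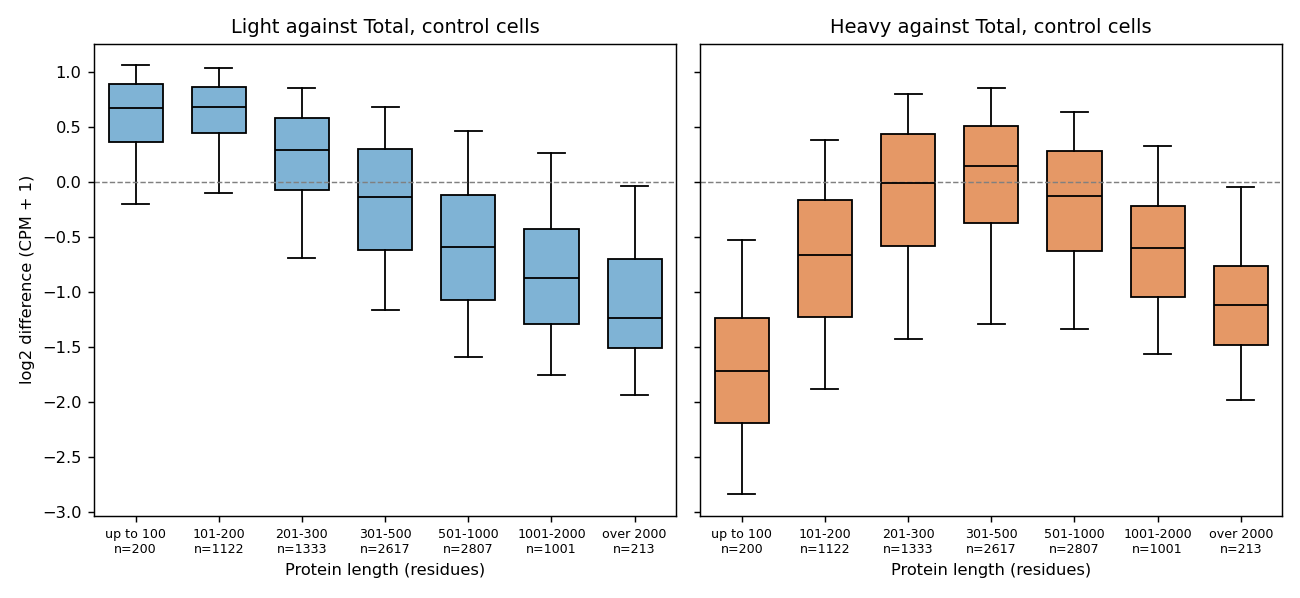
Boxes give the median and quartiles, and whiskers the 5th and 95th percentiles, of the log2 difference of CPM + 1 from Total (vertical axis) for control genes of at least 5 CPM, by protein length in residues (horizontal axis, n genes in each class), for Light on the left and Heavy on the right. The Light medians decline from 0.69 at 101 to 200 residues to -1.23 above 2000, while the Heavy medians are highest, at 0.15, for 301 to 500 residues.

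The shortest messages of all did not lead. In finer classes, chosen after these values were seen, the median log2 difference was 0.50 for the 21 genes of up to 60 residues, 0.59 for 61 to 80, 0.78 for 81 to 100 and 0.82 for 101 to 120, after which it declined to 0.59 at 151 to 200. By the annotated lengths of 1 transcript per gene, untranslated regions moved the medians far less than coding length. Such lengths can be wrong: Sf3b5 was given 3280 bases of 5′ untranslated region, while its RefSeq gene spans chr10:13008450-13009183. How far such errors blur these medians was not tested. Between the genes with the longest and the shortest tertile of 3′ untranslated regions, the medians differed by -0.22 in the shortest class, by -0.19 at 101 to 200 residues and by -0.05 to 0.04 in the other classes. For 5′ untranslated regions the same difference ran from -0.24 to 0.24 with no one direction.

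The 12 genes with the highest log2 differences were taken from called genes of at least 5 CPM with groups that did not overlap, without unnamed gene models. They encode proteins of 84 to 180 residues. Over all called genes, without these limits, the highest difference was 1.50. Mrpl34, a protein of the large mitochondrial ribosomal subunit, was at 113, 120.2 and 109.8 CPM in Light and 46.5, 47.8 and 47.6 CPM in Total. Its log2 difference was 1.25 ± 0.21 (SE) (adjusted p = 0.000154, limma), and every Light library exceeded every Total library by more than the replicates differed. Txn1, the cytosolic thioredoxin that keeps protein thiols reduced, was the most abundant of the 12, at 2185, 2186 and 2408 CPM in Light and 1088, 969.7 and 963 CPM in Total (log2 difference 1.17 ± 0.24 (SE)). Sf3b5, a small subunit of a splicing complex, differed by 1.23, the huntingtin-interacting protein Hypk by 1.22, and Lsm4, a ring protein of RNA decay and splicing, by 1.21. The remaining high genes were Anapc11, the RING subunit of the anaphase-promoting complex, Calm3, 1 of the genes for calmodulin, Msrb1, a methionine sulfoxide reductase, Rnaseh2c, a subunit of ribonuclease H2, Ccdc115, and the respiratory subunits Uqcrb and Ndufa13. Their log2 differences lay between 1.16 and 1.20. All 12 had Heavy log2 differences below 0, from -1.22 for Hypk to -0.53 for Calm3.

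Respiratory chain messages were mostly higher in Light. The complex I list had the highest median of all lists on the deposited scaling, while after quantile normalization replication-dependent histones were above it (1.15 and 0.87). Of 37 complex I genes, whose products pass electrons from NADH to ubiquinone, 30 were higher in Light and 5 were lower, with a median log2 difference of 0.86. Ndufc2 was at 123, 119 and 136 CPM in Light and 64.1, 58.0 and 61.4 CPM in Total, and Ndufb4 at 179, 206 and 208 CPM and 102, 99.4 and 98.1 CPM. Longer subunits were among the lower members. Ndufs1, with 727 residues, was at 20.2, 16.8 and 20.2 CPM in Light and 60.4, 49.9 and 54.6 CPM in Total (log2 difference -1.48 ± 0.19 (SE)), and Ndufa10 differed by -0.59. Among the 41 genes of complexes II to V, 29 were higher in Light and 5 were lower, with a median log2 difference of 0.80. Within ATP synthase and its partners the short members Atp5j2 (1.02) and Atpif1 (0.93), the inhibitor of the enzyme, were higher, while the catalytic chain Atp5b (529 residues, -0.98) and Atp5a1 (553 residues, -1.20) were lower. Subunits of 1 enzyme thus had messages on either side of Total, and the lower ones named here were the longer proteins.

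Mitochondrial ribosomal proteins divided the same way. Of 76 genes, 47 were higher in Light and 11 were lower, with a median log2 difference of 0.59. Mrps12 was at 72.4, 85.2 and 67.2 CPM in Light and 32.7, 36.9 and 36.1 CPM in Total, and Mrps31, with 384 residues, at 10.3, 8.67 and 9.13 CPM and 23.6, 21.2 and 19.8 CPM. Mrps27 and Mrpl19, of 415 and 292 residues, were also lower, at -0.75 and -0.67.

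Cytoplasmic ribosomal protein messages, a class whose translation follows growth signals through a pyrimidine tract at the 5′ end, were mostly higher in Light. Of 49 large-subunit genes, 30 were higher in Light and 7 were lower, with a median log2 difference of 0.63, and of 33 small-subunit genes, 20 were higher in Light and 4 were lower, with a median log2 difference of 0.54. Rpl36 stood at 1925, 2003 and 1669.6 CPM in Light and 849.7, 904 and 976 CPM in Total, and Rps26 at 1679, 1961 and 1736 CPM and 949.6, 959.8 and 952 CPM. Among the lower members were long proteins of the ribosome: Rpl3 and Rpl4, with 403 and 419 residues, differed by -1.09 and -1.06, and Rps4x by -0.88. Against the same Total libraries, Rpl3 and Rpl4 had Heavy differences of 0.73 and 0.43.

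Rplp0 and Rpsa departed from that. Rplp0, the stalk protein of the large subunit, was at 1773, 1795 and 1664 CPM in Light, 4816, 5278 and 5463 CPM in Total and 1999.8, 1803 and 1676 CPM in Heavy, so its share was below Total in both pools (log2 differences -1.57 and -1.51). Rpsa, a small-subunit protein also known as the laminin receptor, differed by -1.67 in Light and -0.93 in Heavy, and Rps2 by -0.95 and -1.17. Rpl41, the shortest ribosomal protein with 25 residues, stood at 907, 1423 and 910.1 CPM in Light, 1785, 1854 and 1909 CPM in Total and 119, 140.2 and 112 CPM in Heavy. Its Light libraries lay below all Total libraries (log2 difference -0.81 ± 0.20 (SE), adjusted p = 0.00361, limma), although other short messages were higher. Ribosomal protein genes have many near-identical copies in the genome, and Rps2 overlaps Snhg9, so reads of these genes could be split or shared by the counting.

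Histone messages were higher in Light almost throughout. Of 60 replication-dependent histone genes tested, whose products package new DNA, 53 were higher in Light and 0 were lower, with a median log2 difference of 0.83. Of the 60, only 13 were of at least 5 CPM. Some histone copies had identical values in the deposited table, so the count is not of separate measurements throughout. Hist1h2bk was at 10.3, 11.9 and 11.2 CPM in Light and 4.55, 5.10 and 5.25 CPM in Total, and Hist1h4d at 4.64, 4.95 and 4.65 CPM and 2.21, 1.94 and 1.95 CPM. These messages end in a stem-loop and carry no long poly(A) tail, the library kit is labelled only by its name, and members of a cluster share sequence, so their levels are those of the deposited counting. Of 11 replication-independent histone genes, 9 were higher in Light and 0 were lower, with a median log2 difference of 0.67, with H2afz, the variant at promoters, at 2596, 2847 and 2819 CPM in Light and 1354, 1252 and 1311 CPM in Total, and H3f3b at 1364, 1359.8 and 1448 CPM and 837, 775 and 719.9 CPM. Of 48 tested genes in a mixed list of small proteins (S100 proteins, light chains, modifiers, small subunits), 31 were higher in Light and 2 were lower, with a median log2 difference of 0.75. Among the lower members was Ubb (305 residues), which encodes a chain of ubiquitin units and differed by -1.09.

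The thymosins, short actin-binding peptides, did not follow the other small proteins. Tmsb4x stood at 541, 705 and 669 CPM in Light, 863, 646 and 653 CPM in Total and 64.6, 67.6 and 64.4 CPM in Heavy, and Tmsb10 at 492, 761 and 624 CPM, 854, 698 and 726 CPM and 58.6, 71.2 and 51.5 CPM. Their Light and Total libraries overlapped, with log2 differences of -0.17 ± 0.21 (SE) and -0.30 ± 0.22 (SE) and adjusted p = 0.592 and 0.317 (limma). Both encode 44 residues.

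**Figure D2:**
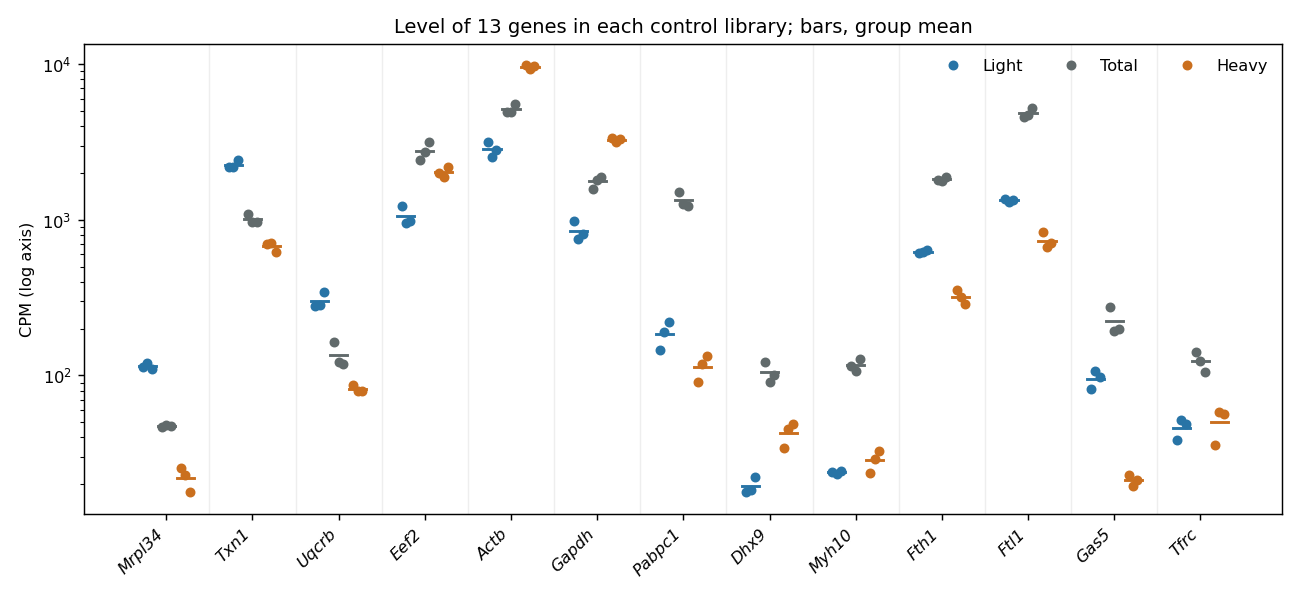
Each point is the CPM (vertical, log axis) of 1 control library for 13 genes (horizontal axis) in Light, Total and Heavy (3 libraries each), and each bar is the group mean. Mrpl34, Txn1 and Uqcrb are highest in Light, Actb and Gapdh are lowest in Light and highest in Heavy, and Pabpc1, Dhx9, Myh10, Fth1, Ftl1, Gas5 and Tfrc are highest in Total.

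The message with the lowest log2 difference of all called genes was Pabpc1, the cytoplasmic poly(A)-binding protein that joins message tails to the initiation complex (chromosome 15, 36595658 to 36609581 in RefSeq on GRCm38). It stood at 146, 191 and 219.9 CPM in Light, 1503, 1265 and 1231 CPM in Total and 90.4, 118 and 133 CPM in Heavy. Its log2 difference was -2.85 ± 0.24 (SE) (adjusted p = 8.57e-07, limma), and its Heavy difference was -3.55, so it was low in both pools. Among the other lowest genes, several act in the nucleolus or bind RNA: Gnl2, a GTPase of large-subunit maturation (-2.42), Dkc1, the pseudouridine synthase dyskerin (-2.34), and Dhx9, an RNA helicase (-2.37). Dhx9 was at 17.7, 18.4 and 22.2 CPM in Light and 122, 90.9 and 101 CPM in Total. Others build or regulate the cytoskeleton: Myh10, a nonmuscle myosin heavy chain, was at 23.9, 23.3 and 24.4 CPM in Light and 115, 106 and 127 CPM in Total (-2.24 ± 0.16 (SE)), and Map1b, Filip1l, Diap3 and Epb4.1l3 differed by -2.33, -2.28, -2.21 and -2.20. Psmd1, a large proteasome subunit, and Jak1, a cytokine receptor kinase, differed by -2.44 and -2.18. The Heavy differences of these genes, apart from Pabpc1, ran from -2.64 for Map1b to -1.24 for Epb4.1l3. Psmd1, Gnl2, Dkc1, Dhx9, Filip1l, Diap3, Epb4.1l3 and Jak1 overlap other annotated genes, whose reads were not separable here.

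Cell division messages were lower together. Of 50 mitosis genes, 4 were higher in Light and 41 were lower, with a median log2 difference of -1.26. Top2a, the topoisomerase that untangles chromosomes, was at 36.9, 43.2 and 39.9 CPM in Light and 201, 173 and 173 CPM in Total (-2.16 ± 0.13 (SE), adjusted p = 1.51e-07, limma), and the kinesin genes Kif23 and Kif4 differed by -2.14 and -1.49. The higher members were short: Cenpa, the centromere histone, Ube2c, which feeds the anaphase-promoting complex, and Spc24 differed by 0.85, 0.73 and 0.55. Of 48 DNA replication genes, 5 were higher in Light and 33 were lower, with a median log2 difference of -0.75, with Rrm1, the large subunit of ribonucleotide reductase, at 57.7, 50.0 and 57.9 CPM in Light and 191, 159.8 and 185 CPM in Total, Pole at -1.42, and the short Gins2 at 0.97.

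Messages of protein synthesis and folding, other than ribosomal proteins, were mostly lower. Of 37 aminoacyl-tRNA synthetase genes, which charge tRNAs, 0 were higher in Light and 30 were lower, with a median log2 difference of -0.97. Lars was at 30.1, 28.8 and 31.0 CPM in Light and 132, 118 and 132 CPM in Total, and Eprs and Iars differed by -2.05 and -1.77. Of 40 initiation factor genes, 5 were higher in Light and 26 were lower, with a median log2 difference of -0.69. Eif3c, a core subunit of the factor that holds the small ribosomal subunit, differed by -1.95, while the short start-codon factor Eif1 was at 1326, 1531 and 1428 CPM in Light and 879, 839 and 865 CPM in Total (0.73). Of 24 chaperonin and heat shock genes, 1 was higher in Light and 19 were lower, with a median log2 difference of -1.32. Hsp90ab1 was at 922, 721 and 805 CPM in Light and 2912, 2933 and 3225 CPM in Total, Hspa8 and Cct3 differed by -1.74 and -1.70, and the 1 higher member was the short co-chaperonin Hspe1 (1.01).

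Elongation factor messages, which carry the same 5′ pyrimidine tract as ribosomal protein messages, were mostly lower in Light. In the list of 19 elongation factors and similar messages, 1 was higher in Light and 15 were lower, with a median log2 difference of -0.93, and the higher member was Imp3, a nucleolar protein. Eef1a1, which delivers tRNAs to the ribosome, was at 2486, 2155 and 2515 CPM in Light, 7154, 6998 and 7068 CPM in Total and 7641, 6743 and 7841 CPM in Heavy (-1.57 ± 0.12 (SE)). Eef2, which moves the ribosome along, was at 1228, 959 and 986 CPM in Light and 2415, 2733 and 3172 CPM in Total (-1.39 ± 0.15 (SE)). Tpt1, of 172 residues, was not called, at 2778, 2479 and 2781 CPM in Light and 2941, 2845 and 2753 CPM in Total (-0.09, adjusted p = 0.814, limma).

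RNA-binding proteins with RGG motifs, the usual substrates of the enzyme that Prmt1 encodes, were mostly lower in these control cells. Of 41 hnRNP and RGG-motif genes, 4 were higher in Light and 33 were lower, with a median log2 difference of -0.95. Nono and Sfpq, partners in nuclear paraspeckles, were at 134, 103 and 121 CPM and 95.4, 80.3 and 94.7 CPM in Light and at 374, 349.6 and 374 CPM and 323, 279.6 and 268 CPM in Total, and Ewsr1 differed by -1.43. The higher members with the lowest p were Cirbp (0.58), Gar1 (0.47) and Habp4 (0.63). Of 17 SR splicing factor genes, 1 was higher in Light and 13 were lower, with a median log2 difference of -0.56, with Srsf9 higher at 0.84 and Srsf11 lower at -1.30. Prmt1 itself did not pass the test (-0.19 ± 0.21 (SE), adjusted p = 0.534, limma), and of its 8 tested family members Prmt2 was higher (0.93) and Prmt10, Prmt5 and Prmt3 were lower (-1.17, -0.80 and -0.32). The difference of Prmt3 was -0.04 after quantile normalization and no longer called (adjusted p = 0.767, limma).

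A group of abundant messages of middle length was low in Light and high in Heavy. Actb, which encodes cytoplasmic actin, was at 3151, 2531 and 2807 CPM in Light, 4911, 4955 and 5581 CPM in Total and 9824, 9369 and 9772 CPM in Heavy. Gapdh, the glycolytic dehydrogenase, was at 989, 754 and 814 CPM in Light, 1587, 1807 and 1892 CPM in Total and 3365, 3142 and 3313 CPM in Heavy. For both genes no library of 1 fraction overlapped another fraction, and the log2 differences from Total were -0.87 ± 0.12 (SE) and -1.05 ± 0.14 (SE) in Light and 0.91 and 0.90 in Heavy. Of 24 glycolysis genes, 2 were higher in Light and 18 were lower, with a median log2 difference of -0.83. Ldha and Pgk1 differed by -1.08 and -1.24 in Light and by 0.83 and 0.61 in Heavy, and the higher members Bnip3 and Pdk1 by 0.64 and 0.53 in Light. The call of Bnip3 was lost without the Total library 3 (adjusted p = 0.0636, limma), and that of Pdk1 without the Light library 2 or 3 or the Total library 1 or 3 (adjusted p = 0.13, 0.086, 0.0984 and 0.128, limma). Of 32 proteasome genes, 2 were higher in Light and 18 were lower, with a median log2 difference of -0.51, and Psmc1, an ATPase of the proteasome base, was at 135, 119.6 and 129 CPM in Light, 268, 269.8 and 265 CPM in Total and 444, 444 and 453 CPM in Heavy.

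The ferritin messages were low in Light and lower still in Heavy. Ftl1, the ferritin light chain whose element is printed above, was at 1351, 1304 and 1345 CPM in Light, 4585, 4736 and 5192 CPM in Total and 829, 664 and 706 CPM in Heavy. Fth1, the ferritin heavy chain, was at 611, 625 and 637 CPM in Light, 1791, 1786 and 1873 CPM in Total and 352, 318 and 289 CPM in Heavy. For each gene the 3 groups did not overlap. The log2 differences from Total were -1.86 ± 0.20 (SE) and -1.54 ± 0.20 (SE) in Light (adjusted p = 3.86e-06 and 1.66e-05, limma) and -2.73 and -2.51 in Heavy. Both encode short proteins, of 183 and 182 residues, in a length class where 976 of 1813 genes tested were higher and 37 lower in Light. Tfrc, the transferrin receptor with its 3′ elements, was at 38.4, 51.8 and 48.4 CPM in Light, 141, 124 and 106 CPM in Total and 35.5, 58.5 and 56.6 CPM in Heavy (-1.40 ± 0.17 (SE)). Of the 10 tested genes of the iron list, 1 was higher in Light and 5 were lower, with a median log2 difference of -0.59, and the higher member was the iron transporter Slc11a2 (0.30). Ftl1 has near-identical copies in the mouse genome, which the deposited counting could treat in ways not stated.

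Noncoding RNAs that host small nucleolar RNAs in their introns showed the same order. Of 21 such genes, 0 were higher in Light and 11 were lower, with a median log2 difference of -0.55. Gas5 was at 81.9, 106 and 97.8 CPM in Light, 275, 194 and 197 CPM in Total and 22.8, 19.4 and 21.3 CPM in Heavy, and Snhg6 at 7.71, 13.5 and 9.08 CPM, 43.0, 35.9 and 35.0 CPM and 2.11, 2.52 and 1.63 CPM. Gas5 and Snhg6 overlap coding genes. Snhg4 differed by -1.10 in Light and -3.01 in Heavy. The nuclear RNA Neat1 was at 22.6, 32.5 and 32.6 CPM in Light, 119, 84.0 and 65.6 CPM in Total and 8.26, 8.26 and 7.85 CPM in Heavy (-1.56 ± 0.21 (SE)). Malat1, another nuclear RNA, ranged from 1.14 to 10.4 CPM over the 3 Light libraries and from 3.17 to 8.13 CPM over the 3 Total libraries, and was not called (-0.37, adjusted p = 0.623, limma).

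Extracellular matrix messages that passed the test were nearly all lower in Light. Of 23 collagen genes, 0 were higher in Light and 11 were lower, with a median log2 difference of -0.62, and of 42 matrix glycoprotein and proteoglycan genes, 1 was higher in Light and 30 were lower, with a median log2 difference of -0.78. Col1a1, the main chain of bone collagen, was at 1004, 896 and 699 CPM in Light and 1317, 2214 and 1952 CPM in Total (-1.06 ± 0.24 (SE), adjusted p = 0.00187, limma), and Col1a2 at 1035, 994 and 871 CPM and 1762, 2344 and 2036 CPM. For Col1a1 and Col1a2 the Light libraries lay below every Total library, with a wide spread among the Total libraries. Lamb1, a laminin chain, and Nid1, which links laminin to collagen, differed by -1.81 and -1.53. Sdc4, a short heparan sulfate proteoglycan of the cell surface, was at 479.9, 421 and 461 CPM in Light and 238, 267 and 279 CPM in Total (0.80). Of 42 integrin and growth factor receptor genes, 4 were higher in Light and 24 were lower, with a median log2 difference of -0.60. Itgb5 and Fgfr1 were among the higher ones, at 0.66 and 0.35, and Itgav and Igf1r among the lower, at -1.54 and -0.99. Of 45 secreted factor genes, 6 were higher in Light and 6 lower, beside 16.5% higher and 28.0% lower over all genes tested. The chemokine Cxcl12 was at 3238, 3778 and 3379 CPM in Light and 1853, 1903 and 1707 CPM in Total, and Csf1 differed by -0.59.

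To see which genes departed from the others of their length, coding genes were put into 50 bins by coding length. In each library, the median deviation of a bin's genes from their means over all 18 libraries was subtracted. After that step 8628 of 15637 coding genes (55.2%) were called, with 4051 (25.9%) higher and 4577 (29.3%) lower. The step shifts genes near 0 CPM as well, so these calls include genes that hardly differed from Total. Of 9 endothelial markers tested, 1 of at least 5 CPM, 1 was called higher before the step and 6 after it. Among called genes of at least 5 CPM with groups that did not overlap, without unnamed gene models, the 6 highest encode proteins of 674 to 2368 residues. Scap, which escorts the sterol-sensing transcription factors out of the endoplasmic reticulum, encodes 1276 residues and was at 183, 195 and 164 CPM in Light and 80.4, 97.8 and 106 CPM in Total (0.93 ± 0.13 (SE), and 1.44 after subtraction). Il17rc, a receptor chain for interleukin-17, was at 151, 191 and 133 CPM in Light and 61.0, 84.2 and 77.1 CPM in Total (1.08 ± 0.21 (SE), and 1.35 after subtraction). Sidt2, a lysosomal membrane protein, Pdzd4 and Ttc16 differed by 0.93, 0.96 and 1.00 before subtraction, and Ttc16, Sidt2 and Cacna1a overlap other genes. Cacna1a, a calcium channel pore, was not called before subtraction (0.61 ± 0.28 (SE), adjusted p = 0.0925, limma). The lowest after subtraction, by the same limits, were Pabpc1 (-2.71), Sepw1 (-2.42), Dkc1 (-2.24), Ftl1 (-2.22), Gnl2 (-2.12) and Psmd1 (-2.11). Sepw1, a selenoprotein of 88 residues, was at 14.8, 23.3 and 13.5 CPM in Light, 57.9, 68.7 and 58.8 CPM in Total and 3.87, 5.71 and 3.19 CPM in Heavy.

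Subtraction reduced the medians of the short-message lists and left those of several others. It took out less than the full trend of genes of at least 5 CPM, because the bins held genes of all levels. The median at 501 to 1000 residues, for example, was -0.25 over all genes tested and -0.58 at 5 CPM or more. How much of the low medians that remained rests on this was not tested. The complex I median went from 0.86 to 0.31, that of large-subunit ribosomal proteins from 0.63 to 0.14 and that of replication-dependent histones from 0.83 to 0.23. Collagen chains went from -0.62 to -0.21, with 7 members higher and 6 lower after subtraction. Before it 0 were called higher and the largest log2 difference of the list was 0.03. Those 7 were thus higher only beside genes of their length, not beside Total. The chaperonin and heat shock median went from -1.32 to -1.19, that of hnRNP and RGG-motif genes from -0.95 to -0.91, that of elongation factors and similar messages from -0.93 to -0.86 and that of glycolysis from -0.83 to -0.74.

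**Figure D3:**
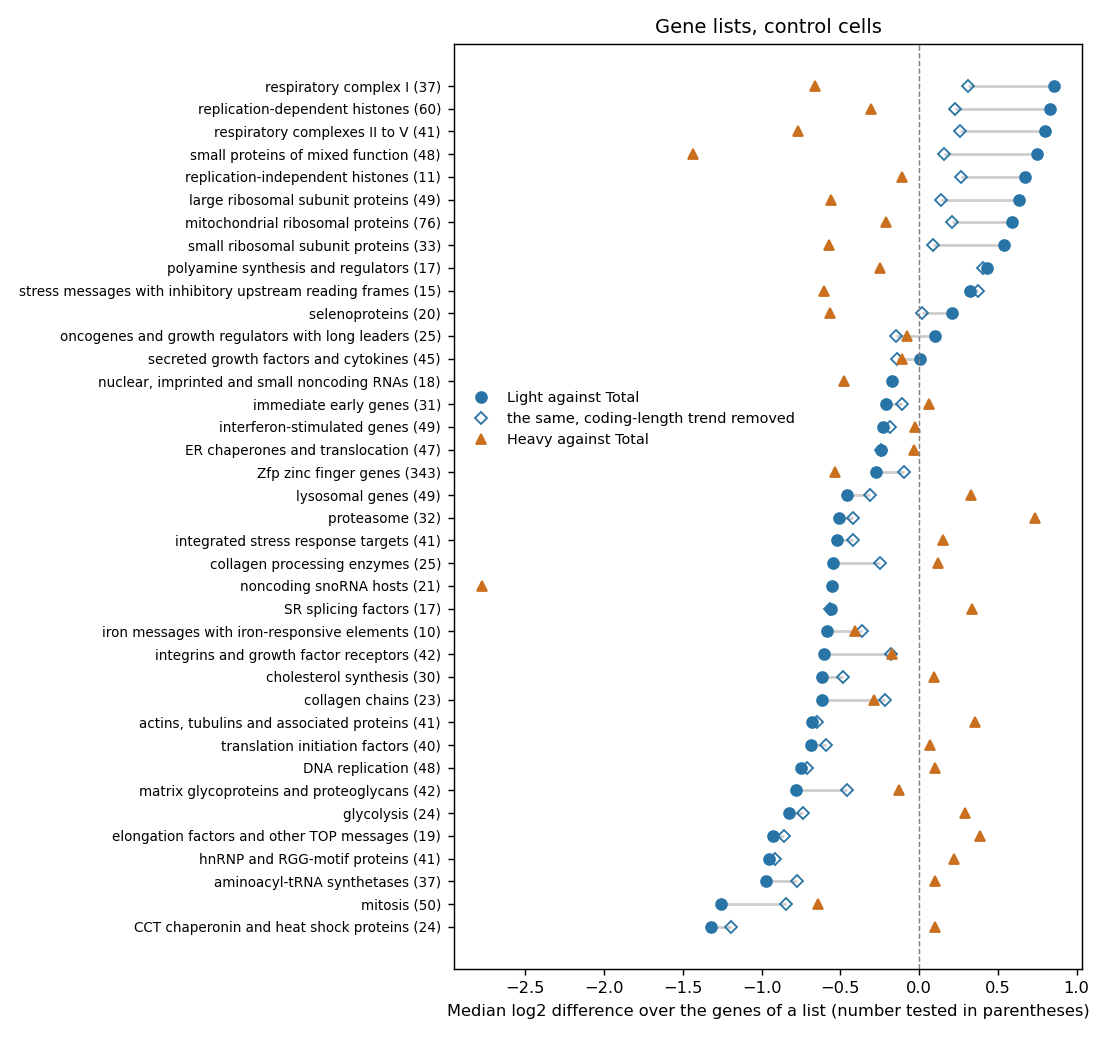
Each row is a gene list of at least 10 tested genes in control cells, with the median log2 difference from Total on the horizontal axis for Light (filled circles), for Light after removal of the coding-length trend (open diamonds, where at least 5 members have a coding length) and for Heavy (triangles). Short-message lists such as complex I (0.86) lie at the right and move toward 0 without the length trend, while the chaperonin and heat shock list (-1.32) stays low. The trend removed is that over coding genes of all levels.

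Lists of messages known for control through their own leaders or reading frames did not share a direction. Beside a median of -0.02 over all genes tested, the Light medians were 0.32 (0.37 after subtraction) for upstream-frame stress messages, 0.43 (0.41) for polyamine genes, 0.10 (-0.15) for growth regulators with long leaders and -0.59 (-0.36) for the iron list. In the list of 15 tested stress messages with inhibitory upstream reading frames, 5 were higher in Light and 2 were lower, with a median log2 difference of 0.32. Ppp1r15a, which restores initiation after stress, was at 103, 105 and 94.8 CPM in Light, 55.3, 60.5 and 64.5 CPM in Total and 30.4, 30.8 and 32.1 CPM in Heavy. Slc35a4, a sugar-nucleotide transporter relative, was at 486, 535 and 439 CPM in Light, 237, 274 and 282 CPM in Total and 116, 107 and 107 CPM in Heavy. Atf5 was called (0.61 ± 0.21 (SE), adjusted p = 0.026), but not without the Light library 2 or the Total library 1 or 3 (adjusted p = 0.156, 0.0881 and 0.0684, limma), while the stress transcription factors Atf4 and Ddit3 were not, at 0.32 ± 0.15 (SE) and 0.34 ± 0.15 (SE) (adjusted p = 0.0976 and 0.0788, limma). Atf4 stood at 812, 1025 and 750.0 CPM in Light, 675, 712 and 662 CPM in Total and 224, 224 and 200.3 CPM in Heavy, so that its Light libraries were all above Total although the difference missed the threshold. Under median-of-ratios scaling Atf4 and Ddit3 were called, at 0.59 and 0.60 (adjusted p = 0.00447 and 0.00236, limma). The lower members were Eprs and Ibtk. The 41 transcriptional targets of the same stress response, in contrast, had 3 higher and 20 lower members and a median log2 difference of -0.52.

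Of 17 polyamine genes, which make and sense small cations of growing cells, 8 were higher in Light and 2 were lower, with a median log2 difference of 0.43. Oaz1, the antizyme whose frame shift is set by polyamines, was at 1057, 1221 and 1040.2 CPM in Light, 613, 669 and 676 CPM in Total and 157, 160.1 and 134 CPM in Heavy (0.76 ± 0.21 (SE)). Sat1, which acetylates polyamines for export, was at 98.3, 102 and 109 CPM in Light and 56.0, 54.9 and 50.5 CPM in Total (0.92 ± 0.12 (SE)), and Dhps, which starts hypusine synthesis, differed by 0.75. Odc1, the first enzyme of the path, and Amd1 and Azin1 were not called (0.43, -0.23 and -0.02). Amd1 has the same values as Amd2 in the deposited table. Among growth regulators with long leaders, Cdk4 (0.69), Bcl2l1 (0.69) and Jund (0.67) were higher, Hif1a (-1.22) and Myc (-0.57) were lower, and Ccnd1 was called only under alternatives (-0.47, adjusted p = 0.0534 with limma and 0.0394 with voom). The call of Myc was lost without the Light library 2 or the Total library 3 (adjusted p = 0.093 and 0.0832, limma).

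The same contrast in the knockout cells uses 6 libraries that the control comparison does not. There 4674 genes (26.7%) differed, with 1922 (11.0%) higher in Light and 2752 (15.7%) lower. Of the 2897 genes higher in control cells, 1464 were higher in knockout cells and 0 were lower, which is 50.5% of the control genes and 76.2% of the knockout genes. Of the 4902 lower in control cells, 2444 were lower in knockout cells and 4 were higher, or 49.9% and 88.8%. Over the 9588 genes of at least 5 CPM the 2 sets of differences had a Pearson correlation of 0.90, a description across genes, which are not independent replicates. The spread of the differences over those genes was 0.74 (SD, log2) in control and 0.51 in knockout cells, and 78.0% of them differed by more in control cells.

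The test of the difference between the cell states called 0 genes (limma interaction, 0%), with 2851 (16.3%) at an unadjusted p under 0.05. Some genes lay just above the cut, such as Ldha and Atp5b (adjusted p = 0.0666, limma interaction). The 0 calls thus do not show that the cell states were alike. The same test called 348 genes after a filter of at least 1 CPM, 465 without the variance trend, 17 after quantile normalization and 0 with voom on recovered reads. Same-numbered Light and Total libraries deviated together in knockout cells (correlations of 0.63, 0.54 and 0.44) but not in control cells (-0.69, 0.38 and -0.69). With the replicate number as a block in both, 0 genes were called between the cell states, and 855 with the block in knockout cells alone, so the count rests on this choice. Pabpc1 differed from Total by -2.24 in knockout Light RNA beside -2.85 in control cells, Ftl1 by -2.21 beside -1.86, Scap by 0.82 beside 0.93 and Mrpl34 by 0.69 beside 1.25. The median of the large-subunit ribosomal proteins was 0.14 in knockout cells, where 1 member was higher and 7 were lower, beside 0.63 in control cells. The complex I median was 0.38 beside 0.86, and the proteasome median -0.05 beside -0.51.

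**Figure D4:**
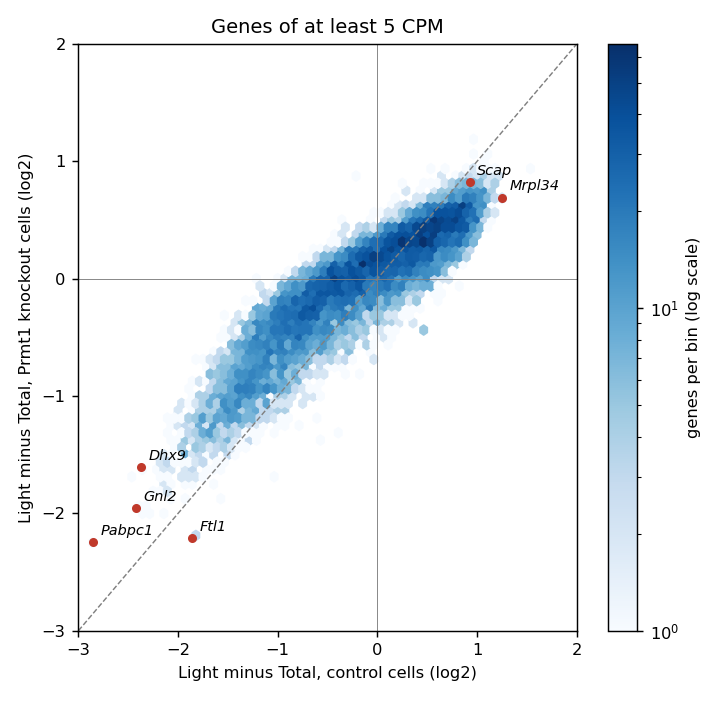
Genes of at least 5 CPM are binned by their log2 difference of Light from Total in control cells (horizontal axis) and in Prmt1 knockout cells (vertical axis), with darker bins holding more genes on a log scale, 6 named genes as red points and the dashed line marking equal differences. The cloud is flatter than the line, as 78.0% of genes differed by more in control cells, while Ftl1 differed by more in knockout cells.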

How the data were processed

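RNA sequencing of 18 libraries was used, of which the 3 Light and 3 Total control libraries form the comparison and the knockout and Heavy libraries give values beside it. The authors deposited 1 table of log2(CPM + 1) values for 19862 genes, with CPM for counts per 1000000 reads. With the log2 undone, 100% of values came to whole reads (tolerance 0.1), for depths of 32.3 to 57.9 M reads (M for 1000000). The submitters' processing notes name STAR, edgeR and mm10, without versions. For the counter, its annotation and its use of strand the sources used here give nothing, and overlapping genes, close copies and genes with identical values are uncertain. Of the symbols, 336 were missing and 27 had been turned into dates, and RefSeq held 19808 of the gene identifiers.

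Since the values are not counts, limma 3.58.1 (R 4.3.3) with trend and robust variances was fitted to the log2 values of all 18 libraries with 6 group means, for the 17515 genes above 0 in at least 3 libraries, and a gene was called where its Benjamini-Hochberg adjusted p lay under 0.05. Summed shares were compared by an exact two-sided permutation test. In simulated data for the control comparison, with 17515 genes, 84 of 100 genes changed by 1 (log2) and 51 of 100 changed by 0.6 were called, with 11 of 17315 unchanged genes. Far fewer genes were changed there than were called in the real data, and noise was drawn separately for each gene. These rates may therefore not hold for the real comparison. Coding lengths came from the principal transcript in GENCODE M21 for 17400 genes, and gene positions from RefSeq on GRCm38. Lists are described by counts and medians without a test. The members, the gene lists and the rule for named genes were chosen with earlier results of these data known. The rule took the 12 highest and 12 lowest called genes of at least 5 CPM with groups that did not overlap, the 3 members of each list and direction with the lowest p, the 6 highest and 6 lowest after removal of the length trend, and a set of housekeeping, stress, iron, polyamine and matrix genes. Unnamed gene models (symbols of the Gm or LOC series, ending in Rik, or missing) were left out of the highest and lowest. Only part of the genes it gives are printed, a choice made after their values were seen, and some items are not reported here.

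Replicate numbers were not used as a block: same-numbered Light and Total control libraries deviated from their group means with correlations of -0.69, 0.38 and -0.69. Those of the knockout cells deviated together (0.63, 0.54 and 0.44), although no label says what a number shares. Alternatives were other filters, scalings, a pseudocount of 0.1, no trend, voom on the recovered reads, the 6 libraries alone, a block, coding genes only, removal of the length trend and leaving out each library. For the difference between cell states, the fits without trend and with voom were added after seeing the data, as was a block in knockout cells alone. Tables and figures were made in Python 3.11.15 (pandas 2.3.3, numpy 2.4.6, matplotlib 3.10.9, scipy 1.17.1).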

Additional observations from a re-analysis of the deposited data

How the results depend on the processing

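The total of calls in the control comparison, and the number lower in Light, stayed within 1.5 times 7799 and 4902 under every alternative. The number higher in Light went from 2897 to 4470 under median-of-ratios scaling. Leaving out each library in turn gave 6826 to 7222 calls, 2352 to 2591 higher and 4354 to 4736 lower, and a gap between the medians of the 101 to 200 and over 2000 residue classes of 1.87 to 1.96 beside 1.92 with all. That gap was 1.73 after quantile normalization. The difference between cell states had 0 calls, but 348 (347 higher and 1 lower) with a mean of at least 1 CPM, 17 (15 and 2) after quantile normalization and 465 (455 and 10) without trend, the last an alternative added after seeing the data.

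With the replicate block, 8384 genes were called in control cells (3199 higher, 5185 lower), 5438 in knockout cells and 0 between them. Same-numbered control libraries did not deviate together (-0.69, 0.38 and -0.69), and Light 1 went with Total 3 at 0.74 and Light 3 with Total 1 at 0.84. Same-numbered knockout libraries did (0.63, 0.54 and 0.44), each above every other pairing there (-0.54 to 0.29). A replicate block in knockout cells alone, an alternative added after seeing the data, gave 5917 calls there (2662 higher, 3255 lower) and 855 between the cell states (822 higher, 33 lower). Of 154 named genes, 142 were called. Under the alternatives run, 0 of the 142 turned direction, and 7 of the 12 not called did so under at least 1: Amd1, Azin1, Ddit3, Malat1, Prmt1, Tmsb4x and Tpt1. Of the 142, 6 lost the call under an alternative other than removal of the length trend: Atf5, Bnip3, Eng, Myc, Pdk1 and Prmt3. Of 39 lists, the median of 5 changed sign under such an alternative. Counting noise at 32.8 to 57.9 M reads (M for 1000000) is small beside the replicate spread, so 3 libraries a side, more than depth, limit the small differences.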

Other observations

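Secretory messages lay on both sides of Total. Of 47 genes for endoplasmic reticulum chaperones and translocation, 17 were higher in Light and 23 lower, with a median log2 difference of -0.24 that turned to 0.01 under median-of-ratios scaling and was also -0.24 after removal of the length trend, where 12 were higher and 23 lower. Manf, a small secreted stress protein, was at 610.1, 688 and 639.9 CPM in Light and 292, 308 and 279 CPM in Total, and Spcs1 and Dad1, subunits of the signal peptidase and of the glycan transferase, differed by 1.08 and 1.10. Srp72, Stt3a and Sec61a1, of 671, 705 and 476 residues, differed by -1.81, -1.08 and -0.82. Of 49 lysosomal genes, 9 were higher and 26 lower (median -0.46, and -0.31 without the length trend, with 10 higher and 21 lower). Atp6v0e, a short subunit of the proton pump, was at 242, 250.3 and 226 CPM in Light and 114, 122 and 118 CPM in Total, and Psap, the precursor of the saposins, at 259, 238 and 209.5 CPM and 492, 564 and 524 CPM. Of 30 cholesterol synthesis genes, 4 were higher and 14 lower (median -0.61). Acly, which makes cytosolic acetyl-CoA, differed by -1.44, while Mvk and Insig1 differed by 0.81 and 0.79.

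Zinc finger genes of the Zfp series were mostly lower where they were called: of 343 tested, 32 were higher and 142 lower, with a median of -0.27 in Light and -0.54 in Heavy. Among 20 selenoproteins, which need a recoding element to read a stop codon as selenocysteine, 5 were higher and 3 lower. Msrb1 differed by 1.19 and Sepw1 by -1.82, the highest and the lowest of the list. Of 49 interferon-stimulated genes, 2 were higher and 13 lower, with Bst2 at 0.92 and Ddx58, the RNA sensor RIG-I, at -1.70. Of 31 immediate early genes, 4 were higher and 7 lower, with a median of -0.21 that turned to 0.11 after quantile normalization, and with Maff at 0.92 and Klf6 at -1.17. Over all genes tested 16.5% were higher and 28.0% lower. Both counts of the immediate early list, and the lower count of the interferon list, lie near those shares and are not read as a trait of these lists. At least 5 CPM was reached by 27 of the 31 immediate early genes and 17 of the 49 interferon-stimulated genes. Every Light library was higher for 5 and lower for 10 of the 31, beside 33.5% and 46.0% of all genes of that level. The share of calls among genes of at least 5 CPM is not given here.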
